A study of Rattus norvegicus with 9 samples.

Results

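The insulin and IGF signalling genes described here are 10 genes taken by name from the table of normalised read counts. They include the ligand gene Igf1, the receptor genes Insr and Igf1r, and the substrate genes Irs1 and Irs2. The rest are Pik3r1, which encodes a regulatory subunit of PI3-kinase, the kinase genes Akt1 and Akt2, and the transcription factor genes Foxo1 and Foxo3. All 10 were found among the 18420 genes listed and were measured in all 9 libraries. Each library held messenger RNA from renal cortex of ZDF fa/fa rats with diabetes, under the label Medical Bypass, and these 9 replicates form the only group analysed here. ZDF fa/fa rats carry a leptin receptor mutation, become obese and develop type 2 diabetes, so every library comes from this mutant background. The labels state no drug, dose, age or sex for Medical Bypass, and no untreated, lean or operated group was analysed here, so no effect of the treatment or of the genotype could be estimated. Nor do they say whether the replicates are separate animals, so the p-values below speak only to the spread among these libraries, and that spread may be technical.

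Insulin and IGF-1 bind receptor tyrosine kinases that phosphorylate the insulin receptor substrates. The substrates recruit PI3-kinase, whose lipid product brings AKT to the membrane, and AKT then phosphorylates FoxO proteins and holds them out of the nucleus. In the kidney, insulin acts on podocytes and on the tubule, where it restrains gluconeogenesis and favours sodium reabsorption, and FoxO1 and Irs2 are best known from liver, where insulin lowers Irs2 transcription.

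The stretch of DNA just before the start of transcription is shown for 4 members: the receptors Insr and Igf1r, Foxo1, whose transcript differed most between replicates, and Akt2, whose transcript differed least. The sequences are the 250 bases upstream of the start in RefSeq, build GRCr8, which is not the build of the read counts, and they run 5′ to 3′ along the gene. Capitals mark GTAAACA, a FoxO binding motif, CAAAACA, a variant of it, and GGGCGG, the GC box, on either strand. The positions are chr12:6128804-6129053 on the minus strand for Insr, chr1:130959747-130959996 on the plus strand for Igf1r, chr2:138462724-138462973 on the plus strand for Foxo1 and chr1:92021667-92021916 on the plus strand for Akt2.
Insr: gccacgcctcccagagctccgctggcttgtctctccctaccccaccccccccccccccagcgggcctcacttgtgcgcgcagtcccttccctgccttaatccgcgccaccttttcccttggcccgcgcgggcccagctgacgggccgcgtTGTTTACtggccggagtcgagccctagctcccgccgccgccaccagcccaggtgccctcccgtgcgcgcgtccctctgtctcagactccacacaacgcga
Igf1r: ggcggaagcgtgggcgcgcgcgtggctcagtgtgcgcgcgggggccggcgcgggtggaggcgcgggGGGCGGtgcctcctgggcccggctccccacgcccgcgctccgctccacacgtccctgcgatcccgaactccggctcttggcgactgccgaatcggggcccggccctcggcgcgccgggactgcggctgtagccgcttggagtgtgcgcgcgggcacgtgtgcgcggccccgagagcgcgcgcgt
Foxo1: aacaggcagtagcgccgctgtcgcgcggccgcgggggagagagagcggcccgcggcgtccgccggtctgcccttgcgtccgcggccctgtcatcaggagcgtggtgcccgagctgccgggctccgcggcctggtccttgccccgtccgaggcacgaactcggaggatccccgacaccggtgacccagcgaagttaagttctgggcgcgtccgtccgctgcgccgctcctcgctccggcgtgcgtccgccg
Akt2: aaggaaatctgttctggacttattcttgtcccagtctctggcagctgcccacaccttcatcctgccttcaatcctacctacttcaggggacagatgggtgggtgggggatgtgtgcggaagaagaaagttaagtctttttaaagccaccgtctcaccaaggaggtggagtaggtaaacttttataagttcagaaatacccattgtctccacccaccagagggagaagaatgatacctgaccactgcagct

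The Insr window held 1 match to GTAAACA, read on the opposite strand, and the Igf1r window held 1 GC box, while the Foxo1 and Akt2 windows held none of the 3 motifs. RefSeq gave such a window for 8 of the 10 members, and Irs2 and Foxo3 were not among them. Over 33469 rat promoter windows of the same length, GTAAACA stood in 3.21%, CAAAACA in 5.46% and GGGCGG in 30.5%. The windows of Insr, Igf1r, Irs1, Pik3r1 and Foxo1 held 22 to 45 CpG dinucleotides, and those of Akt1, Akt2 and Igf1 held 2 to 5, against a median of 5 over all windows. The windows were grouped here by how the transcripts varied between replicates, as described below. Any link of CpG content to that variation was not tested. The Pik3r1 window held 7 GC boxes and the Irs1 window 2, and the Igf1 window held 1 CAAAACA. These are matches of letters and not measured binding.

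Values are the authors' normalised read counts, that is reads in a gene divided by the size factor of its library. They are not corrected for gene length, so levels are compared between replicates and not between genes. Reads in genes numbered 10757440 to 43071223 per library, and 15752 to 17052 genes had a read. A member rested on 37 to 3002 reads in a library. Among kidney markers, Slc34a1 of the proximal tubule averaged 79242 ± 21463 and Umod of the thick ascending limb 57070.3 ± 13125 normalised reads (SD, n = 9). These levels were set against no other tissue or kidney zone, so the cortex label itself was not tested. Slc7a13, also listed for the proximal tubule, was far less even: replicate 4 held 11449 normalised reads but replicate 8 only 690. Whether the libraries differed in their content of tubule segments was not tested. The libraries differed in their multi-mapped share, the percentage of counted reads that had several places in the genome. It was 14.9% to 15.8% in replicates 2, 3, 6 and 9 and 16.8% to 22.1% in the other 5 replicates. The line after the 4 lowest shares was drawn with the members' levels known and rests on no label. The share alone would not place it there, since its widest gap lies between 19.2% in replicate 1 and 22.1% in replicate 5. What is read off these sets is therefore a description, and the values of the members are given in the same order.

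Insr, which encodes the insulin receptor, had 841, 663, 977 and 778 normalised reads in replicates 2, 3, 6 and 9, against 388, 416, 301, 405 and 345 in replicates 1, 4, 5, 7 and 8. The 4 replicates with the lowest multi-mapped share all lay above the other 5, and the highest value was 3.25 times the lowest. Igf1r, the gene of the IGF-1 receptor, had 712, 645, 926 and 828 normalised reads in replicates 2, 3, 6 and 9, against 399, 472, 427, 508 and 479 in the other 5. These sets did not overlap either, replicate 6 was highest for both receptors, and the Igf1r values spanned 2.32-fold. Because these are bulk libraries, fewer cells of a type and less RNA per cell cannot be told apart in any of these differences.

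Among the substrates, which carry the signal from the receptors to PI3-kinase, Irs1 had 204, 203, 309 and 239.5 normalised reads in replicates 2, 3, 6 and 9, against 148, 134, 84.9, 119 and 121 in replicates 1, 4, 5, 7 and 8. These sets did not overlap, and the span was 3.64-fold. Irs2 had 1510.2, 1045, 1293 and 1299 in replicates 2, 3, 6 and 9, against 1276, 1008, 813, 915 and 837 in replicates 1, 4, 5, 7 and 8. Here the sets overlapped, since replicate 1 lay above replicate 3, and the span was 1.86-fold. The Irs2 mean was 1287 ± 190.2 in the 4 replicates and 969.9 ± 187 in the other 5 (SD).

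Pik3r1 encodes the p85α regulatory subunit of PI3-kinase. It had 1403, 2110.0, 1656 and 2038 normalised reads in replicates 2, 3, 6 and 9, against 758, 1279, 949, 859 and 982 in replicates 1, 4, 5, 7 and 8. The sets did not overlap, the span was 2.78-fold, and here replicate 3 was highest and replicate 1 lowest. The AKT kinases, which act downstream of PI3-kinase, differed little. Akt1 had 1407, 1457, 1639 and 1634 normalised reads in replicates 2, 3, 6 and 9, against 1856, 1528, 1800.1, 1739 and 1633 in the other 5. Akt2, the isoform most tied to glucose uptake, had 1252, 1218, 1399 and 1359, against 1200.0, 1157, 1297, 1299 and 1354 in the other 5. The sets overlapped for both kinases, and the highest replicate was 1.32 times the lowest for Akt1 and 1.21 times for Akt2.

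Foxo1, the FoxO factor that drives gluconeogenic genes in liver, had the widest span of the 10 members at 4.45-fold. It had 713, 563, 749 and 501.1 normalised reads in replicates 2, 3, 6 and 9, against 337, 299.8, 168, 249 and 225 in replicates 1, 4, 5, 7 and 8. Its mean was 632 ± 119 in the 4 replicates and 256 ± 65.6 in the other 5 (SD). Foxo3, a related factor known for stress resistance and autophagy genes, had 659, 446, 547 and 538 in replicates 2, 3, 6 and 9, against 359.9, 310.4, 250.4, 238 and 224 in the other 5. Neither FoxO gene had overlapping sets, and the Foxo3 span was 2.94-fold. Igf1, the gene of the ligand IGF-1, had 68.4, 73.7, 71.8 and 63.8 in replicates 2, 3, 6 and 9, against 68.9, 65.9, 76.9, 47.9 and 77.2 in the other 5. The Igf1 sets overlapped, and replicate 7 stood below all others.

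**Figure D1:**
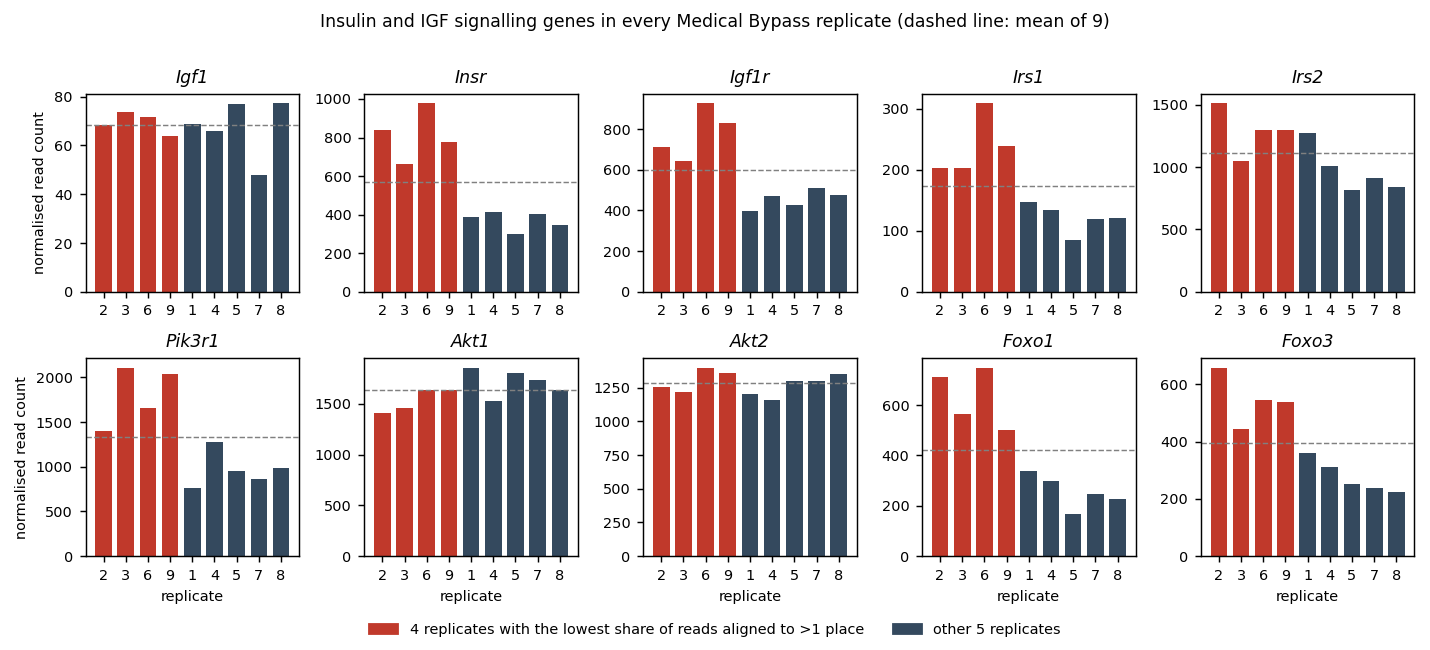
Normalised read count of each of the 10 genes (vertical axes from 0) in replicates 2, 3, 6 and 9, with the lowest multi-mapped share, in red and in the other 5 replicates in dark blue, with the mean of all 9 as a dashed line. The red bars all stand above the blue ones for Insr, Igf1r, Irs1, Pik3r1, Foxo1 and Foxo3, and the bars of Akt1 and Akt2 are nearly level.

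In all, 6 of the 10 members had replicates 2, 3, 6 and 9 above the other 5. So did 14.4% of the 13647 genes tested, those that averaged 10 or more normalised reads, while 8.92% of those genes had them all below. Because the line was drawn with the members' levels known, the count of members and the share of all genes are not on an equal footing. The same 6 members were those whose highest replicate was at least 2 times the lowest, and 50.5% of all genes tested reached that span. The median span was 2.55-fold for the members and 2.01-fold for all genes tested. The variance of each gene between replicates was also set against the trend for genes of its level with limma. It was 6.83 times the trend for Foxo1, 5.13 for Insr, 4.62 for Pik3r1 and 3.86 for Foxo3, but 0.287 for Akt1, 0.260 for Igf1 and 0.132 for Akt2. No gene of 13647 passed at a Benjamini-Hochberg adjusted p under 0.05 (0%), 573 (4.2%) had an unadjusted p under 0.05, and of the members only Foxo1 was among these, at an unadjusted limma p of 0.0315 and an adjusted p of 0.957.

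The multi-mapped share was next used as the explanatory measure in limma, with the slope given as the log2 difference in a gene for 1 SD of the share. This fit was added after the members were seen to run with it. Foxo1 fell by 0.65 per SD (adjusted p = 0.00311), Insr by 0.54 (adjusted p = 0.00318) and Irs1 by 0.48 (adjusted p = 0.00706). Igf1r fell by 0.35, Foxo3 by 0.41 and Pik3r1 by 0.38, with limma adjusted p-values of 0.0105, 0.0249 and 0.0257 in that order. So 6 of 10 members were lower at a higher share and 0 were higher, where 35% of all genes tested passed, 18.7% lower and 16.3% higher. Irs2 had a slope of -0.20 (adjusted p = 0.0735), Akt1 of 0.10 (adjusted p = 0.178), Igf1 of 0.06 (adjusted p = 0.668) and Akt2 of -0.01 (adjusted p = 0.892), and these did not pass. Foxo3 no longer passed without replicate 2, 5 or 6, Pik3r1 without replicate 1 or 6, and Irs1 without replicate 5. In replicates 4 to 9 alone Foxo3, Pik3r1 and Igf1r did not pass (limma adjusted p = 0.103, 0.122 and 0.0565), and with log2 library size in the fit Foxo3 and Pik3r1 did not (0.0603 and 0.0679). The percentage of reads outside genes also ran with some members. Over the 9 libraries r ran from 0.536 for Pik3r1 to 0.855 for Foxo1 among Insr, Igf1r, Irs1, Irs2, Pik3r1, Foxo1 and Foxo3. It was -0.520 for Akt1, -0.199 for Igf1 and -0.101 for Akt2. Replicate 5 stood apart in this percentage, at 22.0% against 27.2% in the next lowest library. The part of reads outside genes in the result was not tested.

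**Figure D2:**
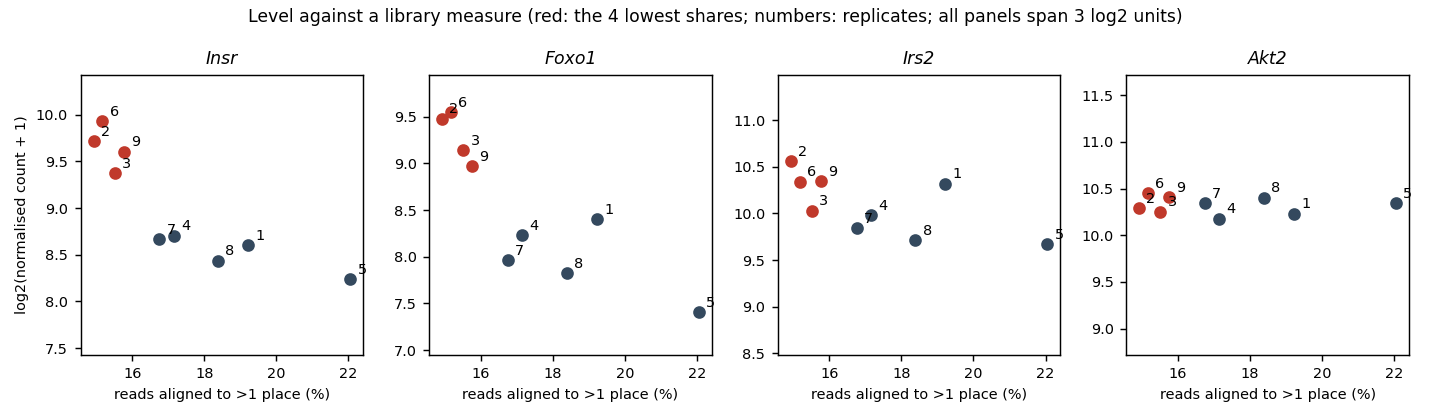
Level of Insr, Foxo1, Irs2 and Akt2 as log2 of the normalised read count plus 1 (vertical axes, each spanning the same range) against the multi-mapped share of each library in percent (horizontal axes), with 1 numbered point per replicate. Insr and Foxo1 are lowest in replicate 5, which has the highest share at 22.1%, and Akt2 stays nearly level across the libraries.

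How the members varied with each other was described by slopes on Foxo1, the transcription factor at the end of the pathway, and on Irs2. A slope is the log2 difference in a gene per log2 unit of Foxo1 or Irs2 between replicates, fitted in limma over all genes tested. Insr rose by 0.79 ± 0.09 (SE) per unit of Foxo1 (adjusted p = 6.75e-05), Irs1 by 0.72 ± 0.11 (adjusted p = 0.000397) and Foxo3 by 0.71 ± 0.10 (adjusted p = 0.00025). Pik3r1 rose by 0.52 ± 0.15 (adjusted p = 0.0162), Igf1r by 0.48 ± 0.11 (adjusted p = 0.00459) and Irs2 by 0.35 ± 0.08 (adjusted p = 0.00624). The slopes were -0.11 ± 0.07 for Akt1, 0.01 ± 0.07 for Akt2 and 0.02 ± 0.13 for Igf1, with limma adjusted p-values of 0.246, 0.897 and 0.924, and none of these passed. Thus 6 of 9 members rose with Foxo1 and 0 fell, where 37.5% of all genes tested passed, 19.7% higher and 17.9% lower. The median slope on Foxo1 was 0.48 for the members and -0.03 for all genes. With every library scaled to the same total of reads in genes, 75.1% of the genes called on Foxo1 were higher, against 52.4% here. The median slope then shifted by 0.08. The same number of members, 6, passed at that scaling, where 4537 of 13646 genes tested did. Pik3r1 did not pass without replicate 5 (limma adjusted p = 0.0507). Nor did it pass with log2 library size as a covariate, at a slope of 0.46 (limma adjusted p = 0.0546). In that fit 5 of 9 members passed, where 3749 of 13646 genes tested did.

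**Figure D3:**
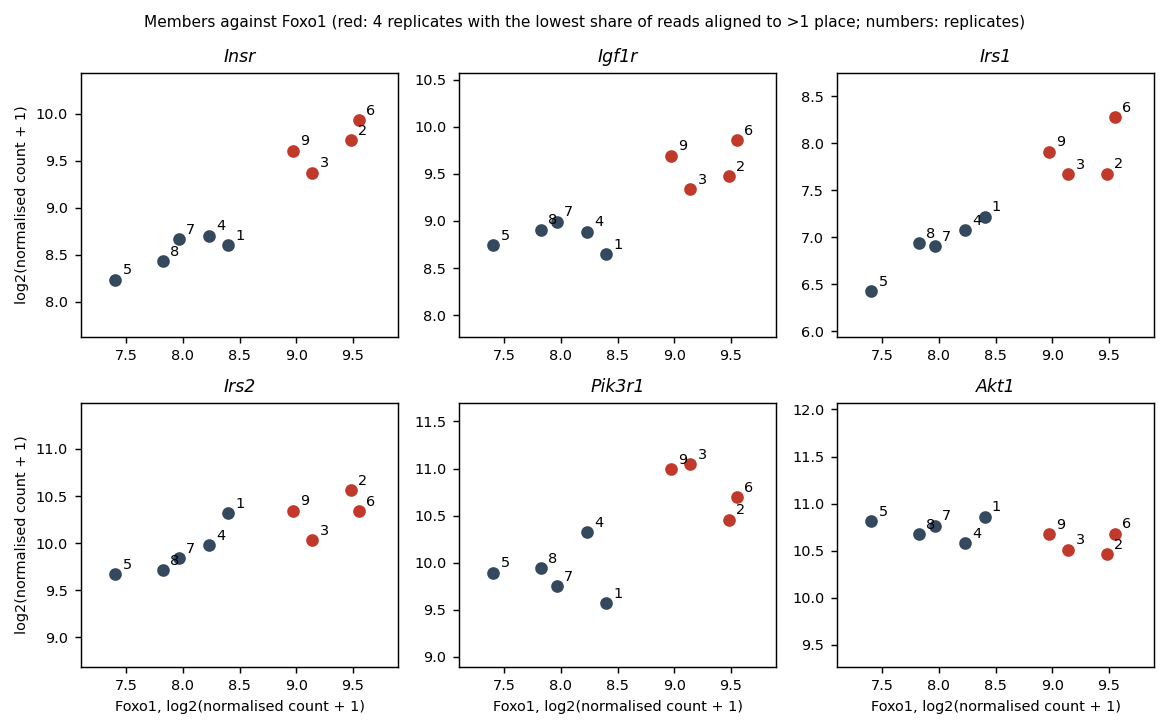
Level of 6 members as log2 of the normalised read count plus 1 (vertical axes) against the level of Foxo1 on the same scale (horizontal axes), with 1 numbered point per replicate and replicates 2, 3, 6 and 9 in red. The 4 red points all lie above the other 5 for Insr, Igf1r, Irs1 and Pik3r1, while they overlap for Irs2 and Akt1 changes little.

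On Irs2, 4 of 9 members rose and 0 fell, where 13.2% of all genes tested passed, 7.64% higher and 5.53% lower. Foxo1 rose by 2.08 ± 0.41 (SE) per log2 unit of Irs2 and Foxo3 by 1.67 ± 0.28, both at a limma adjusted p of 0.0292. Insr rose by 1.58 ± 0.39 (adjusted p = 0.0314) and Irs1 by 1.46 ± 0.39 (adjusted p = 0.0371). Igf1r had a slope of 0.84 ± 0.36 (adjusted p = 0.121) and Pik3r1 of 0.72 ± 0.48 (adjusted p = 0.303), and neither passed. The other 3 members, Akt1, Akt2 and Igf1, had slopes of -0.15, -0.01 and -0.02. The number of genes called on Irs2 turned on single libraries: it was 0 without replicate 2, 5, 6, 7, 8 or 9 (2592 to 4006 genes had an unadjusted limma p under 0.05), so no member passed there, and it was 3996 without replicate 1, 3611 without replicate 3 and 1187 without replicate 4. With every library scaled to the same total, 93.2% of the genes called on Irs2 were higher, against 58.0% here. The median slope of all genes then shifted by 0.23, and 4 of 9 members passed, where 2247 of 13646 genes tested did.

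With the multi-mapped share as a covariate, 0 of 9 members passed on Foxo1, where 6 genes (0.044%) did, and 0 of 9 on Irs2, where 0 genes did (2145 at an unadjusted p under 0.05). The lowest adjusted p of a member in limma was then 0.0633 on Foxo1 and 0.236 on Irs2. The slopes on Foxo1 in that fit were 0.94 for Foxo3, 0.70 for Insr, 0.67 for Irs1, 0.48 for Irs2, 0.35 for Pik3r1 and 0.33 for Igf1r, so those of Foxo3 and Irs2 were larger than without the share and the other 4 smaller. With a term for replicates 2, 3, 6 and 9, added after seeing the data, no gene passed on either (2257 genes on Foxo1 and 2144 on Irs2 had an unadjusted p under 0.05). The slopes on Foxo1 were then 0.65 for Irs1, 0.54 for Irs2, 0.53 for Foxo3, 0.48 for Insr, 0.03 for Igf1r and -0.27 for Pik3r1, with limma adjusted p-values of 0.242, 0.208, 0.281, 0.247, 0.959 and 0.622 in that order. Fitted to the recovered whole reads, edgeR called 6 of 9 members on Foxo1, where it called 38% of genes, and 4 of 9 on Irs2, where it called 15.2%. DESeq2 called 6 of 9 members on Foxo1 and 4 of 9 on Irs2, where it called 42.1% and 25.2% of genes.

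Of 36 cell type markers tested, 5 rose with Foxo1 and 3 fell. For the endothelium 2 of the 3 markers tested, Cdh5 at 0.32 and Tek at 0.33, rose with Foxo1, and the summed endothelial level was 5002 to 6479 in replicates 2, 3, 6 and 9, against 3902 to 5246 in the other 5. None of 5 proximal tubule markers passed on Foxo1, with summed levels of 102606 to 138168 in the 4 replicates and 103507 to 186811 in the other 5. For macrophages 1 of 4 markers tested fell, C1qa, with summed levels of 1085 to 1293 and 1170.0 to 1628 in the same order. The lymphocyte markers Cd3e and Ms4a1 averaged 7.54 and 1.15 normalised reads. The part of these cell types in the result was not tested.

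Likeness was described with no test. Over the 9 libraries, 19 of the 45 pairs of members had a Pearson r of at least 0.7. That is 42.2% of pairs, against 10.9% of all pairs of genes tested. No correlation was taken within either set of replicates parted by the multi-mapped share, since each would be too small. In replicates 4 to 9 alone, 21 of the 45 pairs reached 0.7. The 15 pairs among Insr, Igf1r, Irs1, Pik3r1, Foxo1 and Foxo3 ran from 0.713 to 0.965, the last for Insr with Foxo1. Irs2 had an r of 0.916 with Foxo3 but of 0.422 with Pik3r1. Akt1 ran against those 6, with r of -0.683 to -0.458. All points share the library, and with it the depth and the multi-mapped share.

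Among 9220 or 9221 genes with a mean of at least 100, some members had the same r of at least 0.9 with many genes. There were 788 such genes for Insr, 746 for Foxo1, 685 for Irs1, 322 for Igf1r, 320 for Foxo3 and 312 for Pik3r1. For Irs2, Akt1, Akt2 and Igf1 there were 56, 30, 1 and 0. Whether any likeness was particular to a member was not tested. Named here are the genes most like each member. They were Birc6, Abca1 and Itgb8 for Insr (0.991, 0.990 and 0.990), Cmip, Ergic1 and Ccdc6 for Igf1r (0.989, 0.986 and 0.985), and Bmpr2, Kmt2a and Patl1 for Irs1 (0.993, 0.989 and 0.989). For Irs2 they were Usp22, Nipal3 and Rapgef5 (0.967, 0.965 and 0.965), and for Pik3r1 Fbxo30, Insig2 and Nsd3 (0.986, 0.984 and 0.982). Cramp1 and Peli2 were among the nearest to Foxo1 (0.994 and 0.992), and Ppm1f, Dusp16 and Tle4 to Foxo3 (0.992, 0.988 and 0.977). The likeness was weaker for Akt1, with Foxc2, Gpr162 and Capn1 (0.957, 0.953 and 0.943), for Akt2, with Wwtr1, Jpt2 and Synj2bp (0.915, 0.867 and 0.865), and for Igf1, with Inpp5d, Rbm10 and Gng7 (0.763, 0.753 and 0.746). The most opposed genes were Akip1 for both Insr (-0.976) and Igf1r (-0.981), Msrb2 for Irs1 (-0.977), Rer1 for Irs2 (-0.985), Rgl2 for Pik3r1 (-0.988), Snf8 for Foxo1 (-0.987) and Ndufb5 for Foxo3 (-0.974). For Akt1, Akt2 and Igf1 they were Hibadh (-0.916), Ppp1r36 (-0.929) and Ttc7b (-0.822). The genes with the largest slope statistics on Foxo1 were Cpd, Ptbp3, Mbnl1, Rictor, Tet2, Birc6, Itgb8, Rbm47, Cpne3 and Xiap, all higher, and those on Irs2 were Plekhg1, Frem1, Spata13, Usp22, Nid1, Arrb1, Rapgef5, Nr3c2 and Pcdh17, all higher, and Chmp6, lower at -1.08.

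The wider pathway was taken as 86 other genes in 8 lists, of which 71 were matched and 70 tested. On Foxo1, 23 of the 70 rose and 5 fell, where 19.7% of all genes tested rose and 17.9% fell, and the median slope was 0.09, against -0.03 for all genes. On Irs2, 10 rose and 0 fell, where 7.64% of all genes rose and 5.53% fell. On the multi-mapped share, 21 of the 70 fell and 6 rose, where 18.7% of all genes tested fell and 16.3% rose. With the share as a covariate, 6 of all genes tested passed on Foxo1 and 0 on Irs2. Of the 70, 19 had replicates 2, 3, 6 and 9 all above the other 5 and 3 had them all below, where 14.4% and 8.92% of all genes did. Of 7 ligands and binding proteins tested on Foxo1, 3 fell and 0 rose: Igfbp2 by 0.63 ± 0.18 (SE, adjusted p = 0.014), Igfals, the acid-labile subunit that carries IGF in blood, by 0.58 ± 0.19 (adjusted p = 0.0292), and Igfbp7 by 0.26 ± 0.09 (adjusted p = 0.0347). Igfbp2, which binds IGFs outside the cell, ranged from 273 normalised reads in replicate 3 to 920.2 in replicate 5. Igfbp5 averaged 27580.5 ± 3848 normalised reads (SD, n = 9), with a slope on Foxo1 of 0.17 (adjusted p = 0.152), and Igfbp7 19824 ± 3346.

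Of 6 other receptors and growth hormone signalling genes, 2 rose with Foxo1 and 0 fell: Ghr, the growth hormone receptor, by 0.45 ± 0.10 (adjusted p = 0.0048) and Stat5b, which carries its signal, by 0.30 ± 0.08 (adjusted p = 0.0121). Igf2r, which clears IGF-2, had a slope of 0.07 (adjusted p = 0.733). Of 10 adaptors and receptor inhibitors, 3 rose and 0 fell: Enpp1, an ectoenzyme that inhibits the insulin receptor, by 0.41 ± 0.08 (adjusted p = 0.00256), Sos1, a Ras exchange factor, by 0.40 ± 0.08 (adjusted p = 0.0019), and Grb10, an inhibitory adaptor, by 0.21 ± 0.07 (adjusted p = 0.0274). The adaptor Grb2 had a slope of 0.04 (adjusted p = 0.775).

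Of 8 genes of PI3-kinase and the lipid phosphatases, 4 rose with Foxo1 and 0 fell. Pdpk1, the kinase that activates AKT, rose by 1.06 ± 0.12 (adjusted p = 0.0001) and also with Irs2, by 2.07 ± 0.55 (adjusted p = 0.0362). Among the others were the regulatory subunit Pik3r3 at 0.71 and the catalytic subunit Pik3cb at 0.66. Pik3r2, another regulatory subunit, had a slope of -0.24 (adjusted p = 0.0503) and the phosphatase Inppl1 one of -0.01, and neither passed. Of 11 genes of the AKT arm, 6 rose and 0 fell. Phlpp2, a phosphatase that switches AKT off, rose by 1.17 ± 0.10 (adjusted p = 2.7e-05) and spanned 54.2 normalised reads in replicate 5 to 345 in replicate 6. Gsk3b, a kinase that AKT inhibits, rose by 0.61, the Rab GTPase activators Tbc1d4 and Tbc1d1 by 0.56 and 0.48, and Phlpp1 by 0.23. Phlpp2, Tbc1d4 and Tbc1d1 also rose with Irs2. Trib2 had a slope on Foxo1 of 0.25 (adjusted p = 0.0774) and Ywhaz, a 14-3-3 protein gene, one of 0.22 (adjusted p = 0.0902).

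Of 11 genes of the mTOR arm, 3 rose with Foxo1 and 2 fell. Rictor, the defining subunit of mTORC2, rose by 1.63 ± 0.12 (adjusted p = 2.1e-05) and had 253, 207, 319.9 and 211 normalised reads in replicates 2, 3, 6 and 9, against 97.7, 81.7, 21.2, 60.9 and 51.1 in replicates 1, 4, 5, 7 and 8. These sets did not overlap. Deptor, an mTOR inhibitor, rose by 0.87 and Tsc1, part of the complex that restrains mTORC1, by 0.63, and all 3 also rose with Irs2. Eif4ebp1, the translation repressor that mTORC1 releases, fell by 0.58 (adjusted p = 0.00524) and Akt1s1, which encodes the mTORC1 inhibitor PRAS40, fell by 0.40 (adjusted p = 0.013). Mtor itself had a slope of 0.10 (adjusted p = 0.304) and Rheb, its activator, one of 0.07 (adjusted p = 0.483).

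Of 3 FoxO partners tested, the coactivators Ppargc1a, at 0.91 ± 0.12 (adjusted p = 0.000176), and Crebbp, at 0.57 ± 0.09 (adjusted p = 0.000502), rose with Foxo1 and with Irs2, and Foxo4 had a slope on Foxo1 of -0.07 (adjusted p = 0.612). Of 14 genes known as FoxO targets in other tissues, 3 rose with Foxo1 and 0 fell, a share of risers near the 19.7% of all genes tested. They were Fbxo32, a ubiquitin ligase of muscle wasting, by 0.72 (adjusted p = 0.0011), Bcl2l11, which encodes the death factor BIM and averaged 14.6 normalised reads, by 0.72 (adjusted p = 0.0461), and Sesn3, a stress-response gene, by 0.68 (adjusted p = 0.00395). Fbxo32 was the 1 target that also rose with Irs2. Pck1, which encodes the gluconeogenic enzyme PEPCK, averaged 229757 ± 54281 normalised reads (SD, n = 9) and had a slope on Foxo1 of -0.07 (adjusted p = 0.751). Pdk4, which limits glucose oxidation, had one of 0.39 (adjusted p = 0.273), and Cat, the catalase gene, one of 0.15 (adjusted p = 0.245), so these 3 abundant or variable targets did not pass.

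**Figure D4:**
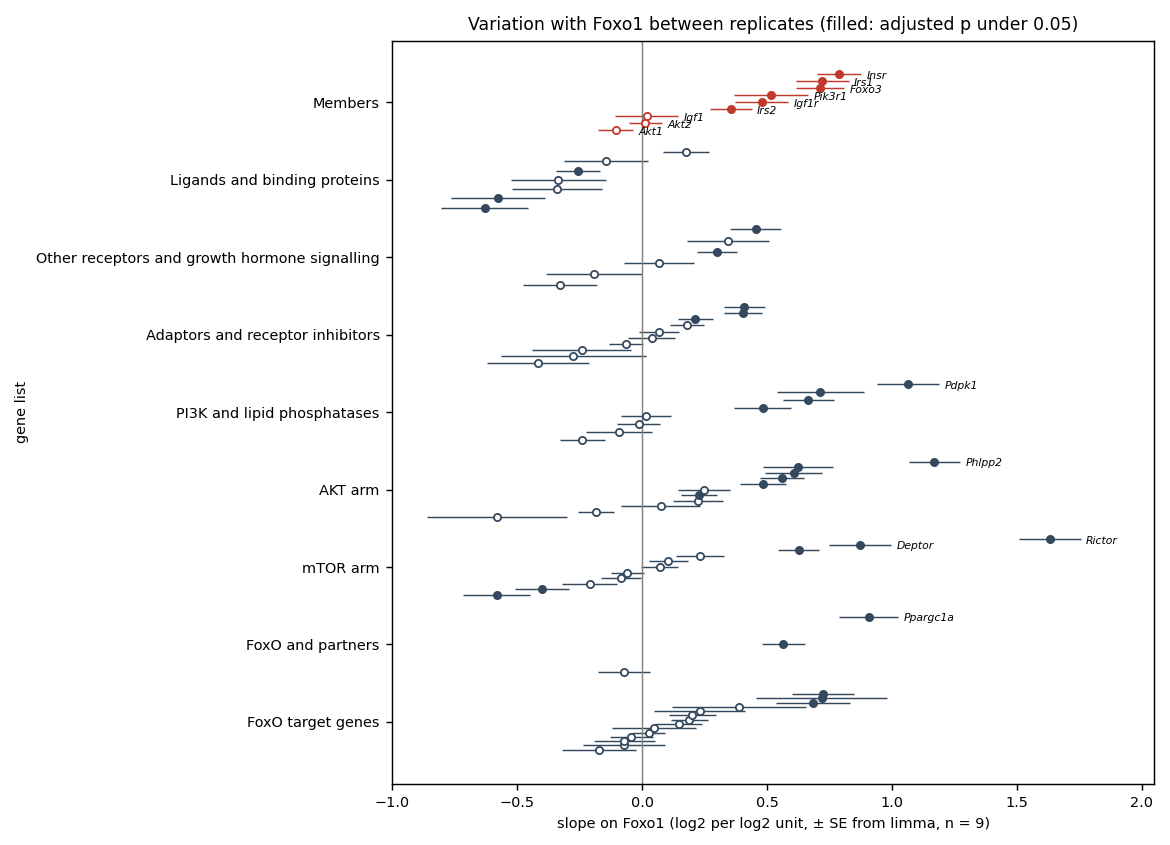
Slope on Foxo1 of 9 members (red) and of the 70 tested genes of the pathway lists (dark blue), as log2 difference per log2 unit of Foxo1 with the standard error from limma as bars (horizontal axis), by list (vertical axis). Filled points passed an adjusted p under 0.05, among them Rictor at 1.63 on the far right and none of Akt1, Akt2 and Igf1.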

How the data were processed

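Kidney cortex RNA of 9 Medical Bypass replicates was sequenced. Per the submitters' processing notes the tools were DESeq2, HTSeq 0.6.1p1, MultiQC 0.9 and FastQC 0.11.2, with the build Rnor_5.0. The aligner is not given in the sources used here. As deposited, each value is a signal that the authors made by dividing a gene's read count by a size factor, with no length correction. Of all counted reads, 28.9% ± 2.93 lay outside genes, 17.2% ± 2.33 mapped to several places and 0.106% ± 0.0129 were ambiguous (SD, n = 9), and these 3 rows stayed out of the tests. Symbols follow the table, after a hyphen was restored in 49 of them; 2364 rows with Ensembl identifiers alone were not named. Genes that averaged at least 10 were fitted on a log2(value + 1) scale with limma 3.58.1 in R 4.3.3 (robust trend, two-sided slopes, Benjamini-Hochberg over all genes tested, threshold 0.05), tested on simulated data. In the simulation of slopes, genes varied independently of each other apart from the slopes put in, unlike genes that run with the multi-mapped share. That simulation therefore cannot speak for the slope p-values given here. A log2 fold understates the change of low genes. Whole reads were recovered (100% of values within 0.1 read), and edgeR 4.0.16 and DESeq2 1.42.0 were run on them as alternatives; counts per gene set the precision.

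The 10 members and all lists were chosen with earlier results of these data known. Named genes were the members, pathway genes that passed a slope test, the 2 highest and the most variable gene of each list, the 3 most like and the most opposed gene per member, and the 10 strongest per slope; some genes under this rule are not reported here. Cell type markers named beside them were picked after their values were seen. Other alternatives were pseudocounts of 0.5 and 5, a mean of at least 100 or no minimum, scaling by TMM or to an equal total, covariates, each replicate left out, and replicates 4 to 9 alone.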

Additional observations from a re-analysis of the deposited data

Results flagged for a closer look

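Of 54 results checked for a replicate that stands apart (10 members, 41 pathway genes and 3 library measures), 3 had a gap to the nearest replicate above Dixon's critical ratio for 9 samples, and chance alone gives about 1 in 20. Igf1 had a ratio of 0.541, from 47.9 normalised reads in replicate 7 against 63.8 in the next lowest replicate. Pdk4, which restrains glucose oxidation, had a ratio of 0.557, from 55959 normalised reads in replicate 9 against 29992 in the next highest replicate. The percentage of reads outside genes had a ratio of 0.555, from 22.0% in replicate 5 against 27.2% in the next lowest library.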

How the results depend on the processing

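Each result was recomputed under the pseudocount, filter, scaling, covariate, tool and replicate alternatives. Of the members' slopes, 468 kept their direction and side of the threshold, 61 kept the direction and no longer passed, 4 came to pass and 32 changed sign. Of those 32, Pik3r1 on Foxo1, at -0.27 with the term for replicates 2, 3, 6 and 9, had passed before, and the others passed neither before nor after. On Irs2 these were Pik3r1 (-0.61 with the term, -0.060 with the multi-mapped share), Igf1r (-0.056 with the term), Akt1 (0.11 at an equal total, 0.072 with the share, 0.062 with the term), Akt2 (0.0011 by TMM, 0.19 at an equal total, 0.10 in replicates 4 to 9, 0.020 with library size, -0.058 to 0.045 when each replicate was left out) and Igf1 (0.19 at an equal total, 0.16 with the share, 0.025 with library size, -0.21 to 0.11 when each was left out). On Foxo1 they were Akt2 (-0.11 with the term, -0.024 to 0.031 when each was left out) and Igf1 (-0.010 in replicates 4 to 9, -0.11 with the term, -0.00096 by edgeR, -0.0046 by DESeq2, -0.056 to 0.098 when each was left out), and on the share Akt2 (-0.041 to 0.0062 when each was left out). Genes called on Foxo1 numbered 5121, with 2117 to 5600 when each replicate was left out (2117 without replicate 5), 6 with the multi-mapped share and 0 with the term for the 4 replicates; edgeR called 5187 and DESeq2 5745. Genes called on Irs2 numbered 1797, with 0 to 3996 when each replicate was left out, 6125 in replicates 4 to 9 alone, 3443 by DESeq2 and 2078 by edgeR, and 0 with the share, with log2 library size (3848 had an unadjusted p under 0.05) or with the term. Genes called on the multi-mapped share numbered 4774, with 1740 without replicate 5, 4978 at most when each was left out, and 3135 in replicates 4 to 9 alone. In replicates 4 to 9 alone 6 of 9 members passed on Foxo1, where 4832 of 13646 genes tested did. On Irs2 in those replicates 6 of 9 members passed, where 6125 of 13646 genes tested did. edgeR and DESeq2 each called 6 of 9 members on Foxo1 and 4 of 9 on Irs2. The members that spanned at least 2-fold numbered 6 to 7, and the pairs with r of at least 0.7 numbered 17 to 23. The extra-variance test called 0 genes by limma under every alternative run, with 573 genes at an unadjusted p under 0.05 in all 9 replicates. The fits on the multi-mapped share and with the term for 4 replicates were chosen after seeing the data. No paired analysis was possible because the labels give 1 group. Where calls were lost, the cause was not tested.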
